A study of Arabidopsis thaliana with 4 samples.

Results

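The UBC8 group is taken here as 7 related ubiquitin-conjugating enzymes of Arabidopsis thaliana. Its alternative splicing was compared between the ecotypes Columbia (Col) and Landsberg erecta (Ler). The members were taken by gene identifier: UBC8 (AT5G41700), UBC9 (AT4G27960), UBC10 (AT5G53300), UBC11 (AT3G08690), UBC28 (AT1G64230), UBC29 (AT2G16740) and UBC30 (AT5G56150). Together they hold 34 of the 14133 alternative splicing events in the deposited table, in 6 of the 7 genes. UBC29 has no listed event. Polyadenylated RNA was sequenced from 14-day-old seedlings of these natural ecotypes, grown on sucrose-containing plates in short days; the labels name no treatment or transgene. The labels give 2 samples of Col and 2 of Ler and name the first leaf as source, while their extraction text names shoots. The authors deposited 1 inclusion level per ecotype, so the spread between samples is not shown and the number of reads behind a level is unknown. Levels are therefore given without error.

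Ubiquitin reaches its target proteins through a cascade in which an activating enzyme (E1) passes it to a conjugating enzyme (E2), and a ligase (E3) brings the loaded E2 to the target. The UBC8 group corresponds to the UBE2D (UbcH5) enzymes of humans, and its members serve many RING-type ligases. UBC8 and UBC10 are common E2 partners in ubiquitination assays with plant ligases, and UBC9 and UBC10 are widely used as reference genes for transcript measurements.

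The 7 genes share their coding structure exactly. In a RefSeq transcript of each gene, the coding sequence was split into exons of 70, 128, 105 and 144 bases, giving 447 bases or 149 codons with the stop. Coding sequences were 72.5% to 91.1% identical between members (median 77.9% over 21 pairs), with UBC9 and UBC10 the closest pair at 91.1% and UBC8 with UBC28 next at 88.8%. The longest run of identical aligned bases between any pair was 38, so reads of coding exons shorter than that may not separate close members. The handling of reads that match several members is not stated in the labels or the file.

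The genes differ ahead of the start codon. In 6 of them an intron interrupts the leader (the 5' untranslated region), 99 bp long in UBC10 and UBC28, 102 bp in UBC9, 163 bp in UBC8, 242 bp in UBC11 and 489 bp in UBC30. Its acceptor lies close to the start codon: 10 bases ahead of it in UBC10, 18 in UBC8, 19 in UBC11, 21 in UBC28, 23 in UBC30 and 37 in UBC9. The single annotated transcript of UBC29, the gene with no event, has 4 exons and no leader intron. Of the 34 events, 28 involve the leader intron, and 21 of those have their alternative segment wholly on the leader side of the start codon. The other events are in UBC8 (introns 2 and 4) and UBC10 (introns 2 and 3).

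**Figure D1:**
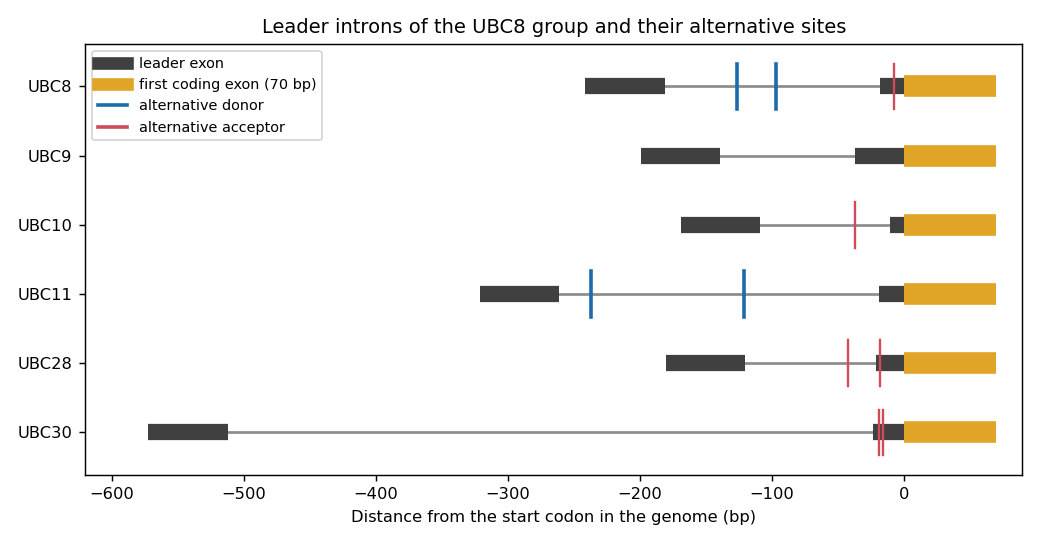
Leader introns of the 6 UBC8-group genes with events, drawn by distance in bp from the start codon in the genome (x axis; y axis, gene). Dark bars are leader exons (only the end of the upstream one is drawn), yellow bars the 70 bp first coding exon, blue ticks alternative donors and red ticks alternative acceptors; the exon-skipping acceptor of UBC30 lies beyond the drawn range. UBC8 and UBC11 carry alternative donors well inside the intron, while the alternative acceptors of UBC28 and UBC30 sit within 21 bp of the main one.

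The splice sites of the genes on which the comparison turns are shown on the Col reference (RefSeq copy of TAIR10, plus strand), with the GT that opens an intron at each donor, or the AG that closes it at each acceptor, in capitals. Donor windows hold 10 exon bases and then 20 intron bases. All 25 introns of the listed forms, from 72 to 753 bp, begin with GT and end with AG, and 16 of them are annotated. The Ler sequence of these sites was not used here.
UBC11 main donor, chr3:2641216-2641245: cttcttccagGTctaattccaccatttctc
UBC11 donor 24 bp downstream, chr3:2641240-2641269: tttctctttgGTtaaaccctaatttctttc
UBC11 donor 140 bp downstream, chr3:2641356-2641385: gttttgttcgGTctctggttcttccactgt
UBC28 main acceptor and the acceptor 3 bp downstream, chr1:23833749-23833778: gggtttggttttttggatctAGgAGttttt
UBC28 acceptor 21 bp upstream, chr1:23833725-23833754: ttgttgcgttgctgaatctatctAGggttt
UBC30 main acceptor and those 4 and 7 bp downstream, chr5:22729715-22729744: atttgattttgttcctAGctAGcAGaagct
UBC8 main donor, chr5:16675881-16675910: tctttctgagGTatcaaagctttctccttt
UBC8 donor 55 bp downstream, chr5:16675936-16675965: ctcttcttttGTaggaattcaaaaagctcg
UBC8 donor 84 bp downstream, chr5:16675965-16675994: gtctcttcttGTtcgattcaatcagattag
UBC8 acceptors of intron 2, 6 bp apart, chr5:16676473-16676502: tatgttttagtttttgcAGgtccAGttgct
The 3 bp acceptor of UBC28 and the 4 and 7 bp acceptors of UBC30 form tandem AG dinucleotides with the main one, whereas the downstream donors of UBC8 and UBC11 are separate GT dinucleotides.

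An inclusion level compares only the forms named in the event. For a 3' or 5' splice site event it is the share of the shorter intron (the longer exon) against 1 other junction, and for retention it is the share of the unspliced interval against the junction that removes exactly that interval. The pairwise part of this reading was checked on the levels themselves. Which form a level counts could not be checked so, because the products close equally if every level is inverted. Where 3 sites of a gene are listed pairwise, the product of 2 odds should give the third level. With Col and Ler counted as separate sets, it did so within 5 percentage points in 99.1% of 953 sets over the whole table. In the UBC8 group 13 of 14 sets did, and sets of the same gene can share junctions. Likewise, the odds of 2 overlapping retention intervals should differ by the ratio of their junctions. Of 2592 such pairs over all genes, again counted per ecotype, 74.1% fell within 5 points, with a largest mismatch of 69.2 points. All 6 pairs in the UBC8 group did, with a largest mismatch of 2.4 points. A level that compares minor forms can therefore be large where both forms are rare. For this reason each minor form is given below also per 100 of the main junction, obtained by multiplying odds of the levels in the authors' deposited table.

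The ecotypes differed at 3 UBC8-group events by the authors' mark, against a background of 7.46% marked among all events. These 3 of 34 (8.82%) are near that background, and so few events do not separate the group from the table as a whole. The marks are a retained interval of UBC28 and a 3' site event of UBC30, both higher in Ler (background 3.38% marked in that direction), and a 5' site event of UBC11, higher in Col (background 4.08%). Each lies in the leader intron, outside the coding sequence. UBC8, UBC9 and UBC10 had no marked event. With q under 0.05 and at least 10 points, whatever the mark, 4 events of the group are called (11.8%, background 8.41%). With the mark and at least 20 points 2 are (5.88%, background 4.2%). A q value under 0.05 alone, whatever the size, is listed for 7 events of the group (20.6%), against a background of 14.3%. Under each of these rules the group's share was above the background, on few events that partly share junctions.

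Most splice site and exon events of the group differed little between the ecotypes, the exceptions being in UBC11 and UBC30. The median absolute difference of the 34 events was 1.36 percentage points, against 3.78 over all 14133 events. Many of the 34 share junctions, and with 1 event per gene the group's median was 3.46 points, while without UBC11 it was 0.77. For the 24 splice site and exon events it was 0.726 points, against 2.56 over all 6734 such events. Levels of 16 of these 24 (66.7%) were within 5 points of 0 or of 100% in both ecotypes, against 32.1% over all such events. Retention went the other way: the 10 retention events of the group had a median absolute difference of 17.0 points, against 5.19 over all 7399. That median counts the UBC9 event at 21.6 points, which is listed at 0 in Ler and does not show a difference. Only an interval of UBC11 and an interval of UBC28 have q under 0.05 in the authors' deposited table. Of the 10 intervals, 8 are bounded by a minor junction that also has a site event, so their levels set the unspliced form against a rare junction. The other intervals are the leader intron of UBC9 and an interval of UBC10 that no site event shares.

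**Figure D2:**
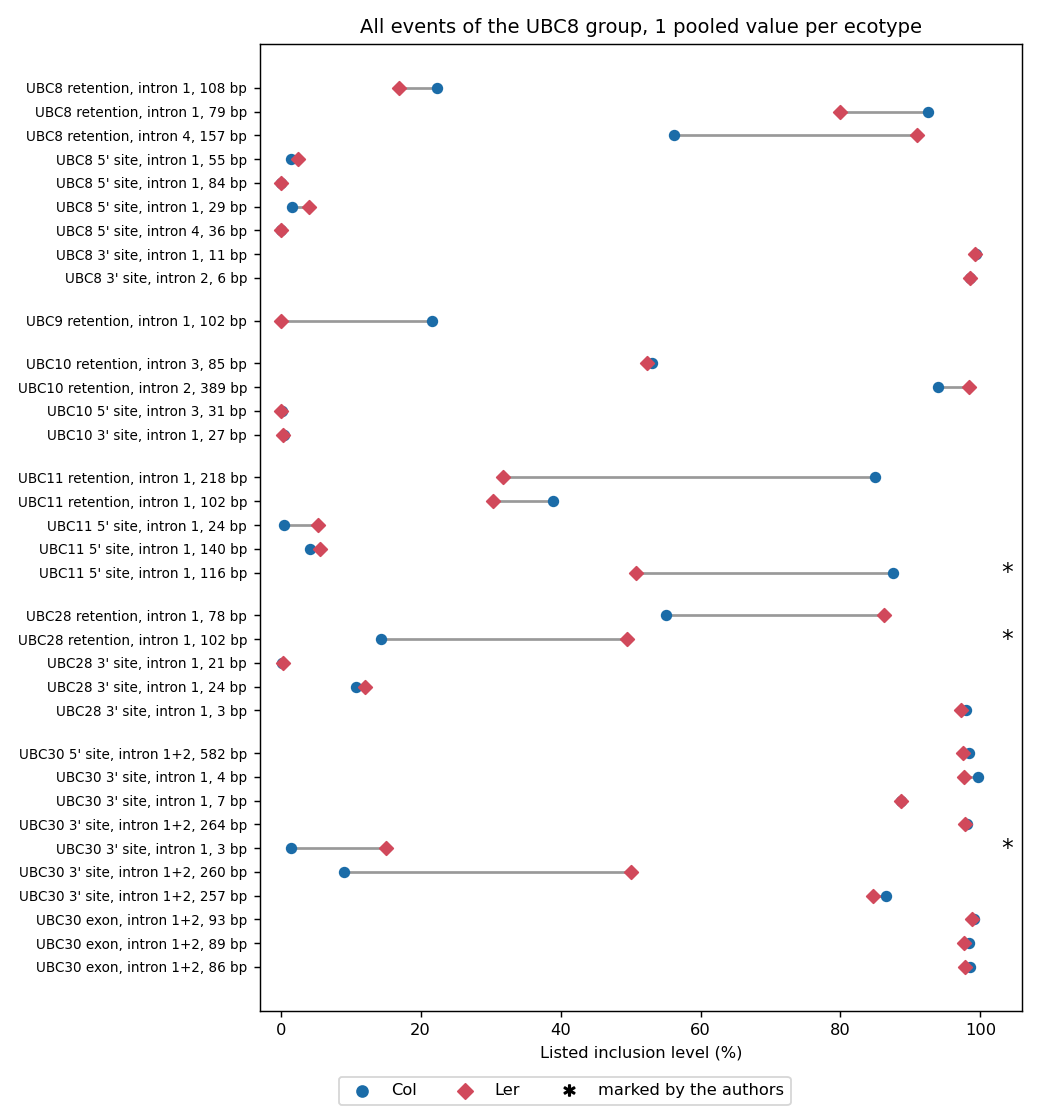
Listed inclusion level (x axis, percent) of each of the 34 events of the UBC8 group, grouped by gene, with event type, intron number and length of the alternative segment (y axis). Circles are Col, diamonds Ler, 1 pooled value each, and asterisks are the authors' marks. Site and exon events pair closely near 0 or 100%, apart from UBC11 and UBC30, while 5 retention events lie over 20 points apart. Among these is the UBC9 event, listed at 0 in Ler.

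UBC11 held the largest difference in the group, and it centres on a donor 24 bp downstream of the main one. Against the main donor this site was used at 0.415% in Col and 5.3% in Ler, an event with q = 2.45e-05 in the authors' deposited table, a difference of 4.89 points and no mark. In the event that sets it against the annotated donor 140 bp downstream, this farther donor took 87.5% in Col and 50.8% in Ler. This event, with a 116 bp segment at chromosome 3, 2641250 to 2641365, is the marked one (q = 0.00755 in the authors' deposited table). Against the main donor, the 140 bp donor itself took 4.19% in Col and 5.65% in Ler, with q = 0.643 in the authors' deposited table. The same difference thus appears in several events that share the 24 bp donor, and they are not independent.

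Per 100 of the main UBC11 junction, the 24 bp donor stood at 0.417 in Col and 5.6 in Ler, a ratio of 13.4. Taken through the 140 bp donor the values were 0.625 and 5.79, a ratio of 9.27. The 140 bp donor stood at 4.38 (Col) and 5.98 (Ler) directly, and at 2.92 and 5.79 through the 24 bp donor. The retention level of the 218 bp interval that starts at the 24 bp donor was 85.0% in Col and 31.8% in Ler. This event carries no mark although its q is 0.00089 in the authors' deposited table; events with q under 0.05, at least 10 points and no mark make up 0.955% of the table. Set against the main junction, however, the unspliced form stood at 2.36 per 100 in Col and 2.61 in Ler through this interval. Through the 102 bp interval behind the 140 bp donor, with levels of 38.9% and 30.4% (q = 0.795 in the authors' deposited table), it stood at 2.78 and 2.62. The 218 bp interval also holds exon bases of the 140 bp donor form, and whether such reads were counted as unspliced is not stated. On the scale of the main junction the unspliced leader thus had close values in both ecotypes, and the 24 bp donor had the widest gap. None of these leader segments contains an ATG.

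UBC28 carried the marked retention event of the group, with more unspliced leader in Ler. The retention level of the 102 bp interval at chromosome 1, 23833672 to 23833773, was 14.3% in Col and 49.5% in Ler, the marked event of the gene (q = 1.39e-05 in the authors' deposited table). The 78 bp interval with the same donor had levels of 55% (Col) and 86.2% (Ler), without a mark (q = 0.0594 in the authors' deposited table). Both intervals end at minor acceptors. The acceptor 3 bp downstream of the main one stood at 2.11 per 100 of the main junction in Col and 2.89 in Ler, and that 21 bp upstream at 0.256 and 0.396. Per 100 of the main junction the unspliced leader was 0.352 in Col and 2.83 in Ler through the 102 bp interval, a ratio of 8.05. Through the 78 bp interval it was 0.312 and 2.47, a ratio of 7.92. The unspliced form thus differed about as much by either route, which share the unspliced form and are not independent, and stayed under 3 per 100 in both ecotypes.

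The choice among UBC28 acceptors differed by at most 1.26 points. The main acceptor took 97.9% in Col and 97.2% in Ler against the one 3 bp downstream (q = 0.35 in the authors' deposited table). The upstream acceptor took 0.255% and 0.394% against the main one (q = 0.752), and 10.8% and 12.1% against the 3 bp acceptor (q = 1), both in the authors' deposited table. All 3 acceptors are annotated. Over the whole table, 516 events have acceptors 3 bp apart, with a median level of 55.6% in Col (quartiles 13% and 92.8%), so UBC28 lies above the upper quartile. None of the added segments, of 3, 21 or 24 bases, contains an ATG, and none alters the coding sequence.

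UBC30 has the longest leader intron of the group and the most events, 10. Its main acceptor competes with sites 4, 7 and 264 bp downstream, the last being the acceptor of intron 2, whose use skips the 93 bp exon that holds the start codon. The acceptor 7 bp downstream, which is annotated, was the most used minor site of the group, at 12.8 per 100 of the main junction in both ecotypes. The main acceptor took 88.7% in Col and 88.6% in Ler against it (q = 1 in the authors' deposited table). The site 4 bp downstream, which no RefSeq transcript uses, was the one that differed. Against the 7 bp site, it took 1.52% in Col and 15.1% in Ler, the marked event (a 3 bp segment at chromosome 5, 22729737 to 22729739; q = 0.0352 in the authors' deposited table). Of all events with acceptors 3 bp apart, 12.8% are marked, and the UBC30 level in Col lies below their lower quartile of 13%.

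Against the main UBC30 acceptor, the site 4 bp downstream stood at 0.394 per 100 in Col and 2.48 in Ler, a ratio of 6.3. Through either of the other acceptors it was 0.197 and 2.27, a ratio of 11.5. In the event against it, the main acceptor took 99.6% (Col) and 97.6% (Ler), with q = 0.0225 in the authors' deposited table and no mark. Against the exon-skipping junction the 4 bp site was at 9.09% in Col and 50.0% in Ler (q = 0.189 in the authors' deposited table), the largest difference of the gene. The use of the 4 bp site was thus low in both ecotypes and higher in Ler in each of the 3 events that compare it. These events share the junction of that site and are not independent.

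Skipping of the UBC30 start codon exon was rare in both ecotypes. Exon events are listed for each of its starts: 99.1% for Col and 98.8% for Ler with the main acceptor, 98.3% and 97.6% with the 4 bp site, and 98.5% and 97.8% with the 7 bp site. These events share the skipping junction and the junction behind the exon, and how an exon level combines junctions is not stated, so they are not separate inclusion levels of each acceptor. None of these events was marked (q from 0.81 to 0.922 in the authors' deposited table). The skipping junction stood at 1.97 per 100 of the main junction in Col and 2.27 in Ler. In the remaining events of that junction the exon side took 98.1% and 97.8% at the main acceptor, 86.5% and 84.7% at the 7 bp acceptor, and 98.3% and 97.5% at the donor of intron 2.

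**Figure D3:**
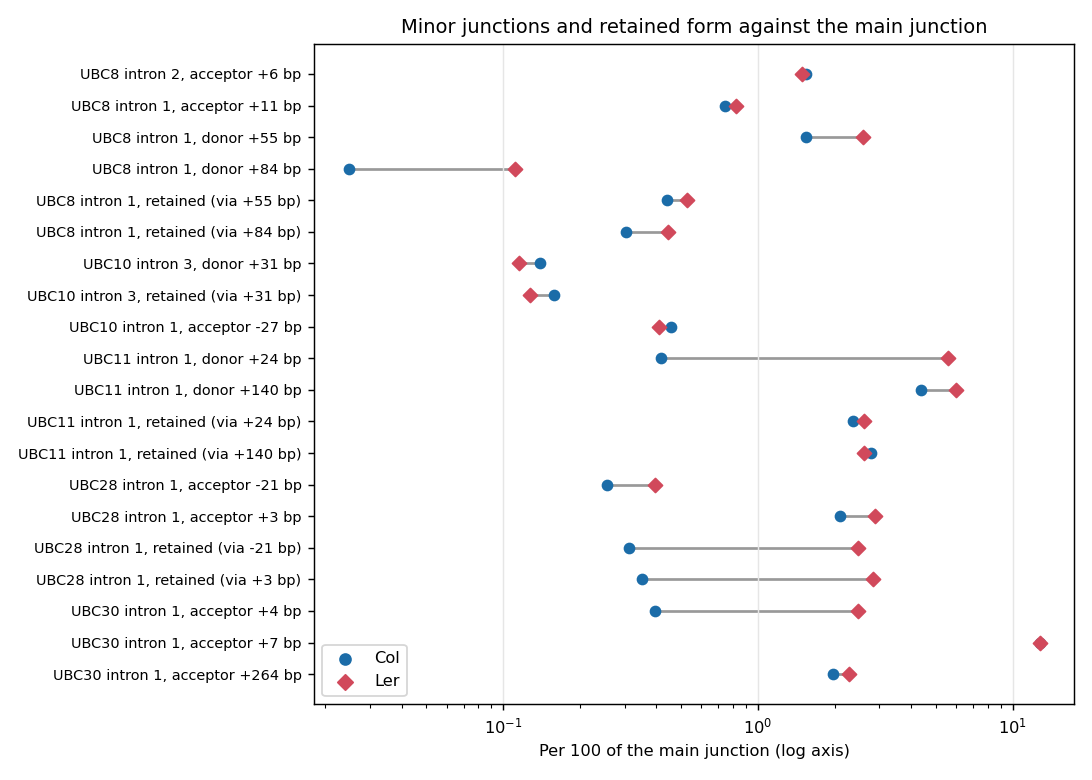
Minor junctions and the unspliced form per 100 of the main junction of the same intron (x axis, log scale), in Col (circles) and Ler (diamonds), by gene and site (y axis; shifts in bp from the main site, positive downstream). The 24 bp donor of UBC11, the 4 bp acceptor of UBC30 and the unspliced leader of UBC28 lie far apart, and the 7 bp acceptor of UBC30 coincides at 12.8. The much rarer 84 bp donor of UBC8 also lies apart, at 0.0248 in Col and 0.111 in Ler.

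UBC8, which gives the group its name, had 9 events and no mark. In its leader intron a donor 55 bp downstream, annotated in 1 RefSeq transcript, was used at 1.51% in Col and 2.53% in Ler against the main donor. This event has q = 0.00104 in the authors' deposited table, but differs by only 1.02 points. A donor 84 bp downstream took 0.0248% (Col) and 0.111% (Ler) against the main donor (q = 0.331 in the authors' deposited table). Per 100 of the main junction its ratio of Ler to Col was 4.48. Against the 55 bp donor the 84 bp donor took 1.57% and 4.07%. The retention level behind the 84 bp donor was 92.5% in Col and 80.0% in Ler, and that behind the 55 bp donor 22.4% and 16.9%. Per 100 of the main junction, the unspliced leader was 0.305 in Col and 0.444 in Ler through the 84 bp donor and 0.442 and 0.528 through the 55 bp donor. The high retention level behind the 84 bp donor thus corresponds to a form rarer than 1 per 100. An acceptor 11 bp downstream gave way to the main one at 99.3% in Col and 99.2% in Ler.

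Inside the coding span of UBC8, intron 2 has a second acceptor 6 bp downstream, in frame, which shortens the reading frame from 148 to 146 codons with the same stop. The main acceptor took 98.5% in both ecotypes (q = 0.998 in the authors' deposited table); the interval has another length in Ler than in Col. In intron 4 a donor 36 bp downstream would add 12 codons in frame. It was used at 0.0732% in Col and is listed at 0 in Ler. The interval behind this donor had a retention level of 56.2% in Col and 90.9% in Ler (q = 0.216 in the authors' deposited table), which came to 0.0941 per 100 of the main junction in Col. No such value can be given for Ler, where the donor is listed at 0. Retention of the whole intron, which 1 RefSeq transcript shows, leaves 145 codons before a stop.

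UBC10 had 4 events, none marked. In its leader an acceptor 27 bp upstream of the main one, annotated in 1 transcript, was used at 0.455% in Col and 0.409% in Ler. A donor 31 bp downstream in intron 3 was used at 0.14% in Col and 0.116% in Ler, and the interval behind it had a retention level of 53.1% and 52.4%. Per 100 of the main junction, the unspliced intron 3 was 0.159 in Col and 0.128 in Ler. Use of that donor, or retention of the whole intron, shifts the frame and leaves 71 of 148 codons before a stop. A 389 bp interval over intron 2, which ends 32 bp inside the next exon, had a retention level of 93.9% for Col and 98.4% for Ler, the largest difference of the gene at 4.47 points. No site event links this junction to the main one, so its rarity was not measured.

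UBC9, the closest relative of UBC10, had a single event, retention of its 102 bp leader intron (chromosome 4, 13917241 to 13917342, minus strand). The level was 21.6% in Col and is listed at 0 in Ler, with q = 1 in the authors' deposited table. A level listed at 0 can be a failed estimate, so the 21.6 points do not show a difference. The unspliced form is annotated, and it is the only leader segment among 21 in the group that contains ATG triplets (2 of them). In that RefSeq transcript the coding sequence starts inside the intron and gains 30 codons ahead of the usual start.

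**Figure D4:**
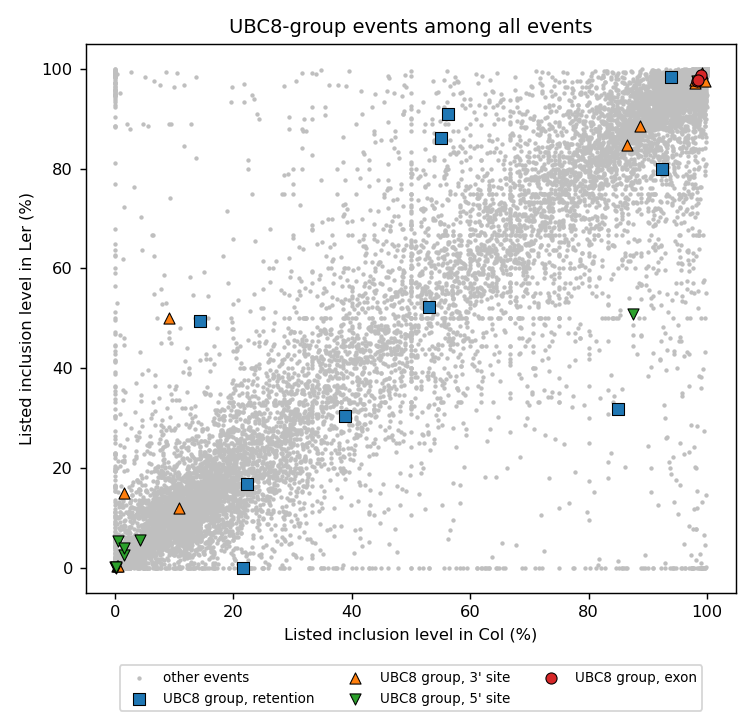
Listed inclusion level in Col (x axis, percent) against Ler (y axis, percent) for all 14133 events (grey) and the 34 events of the UBC8 group by type. Site and exon events of the group lie mostly in the corners near 0 and 100%, and the retention events spread along and away from the diagonal.

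Other genes of the ubiquitin pathway were examined in the same way. Of 69 listed genes, 27 had events, 53 in all, of which 3 (5.66%, background 7.46%) were marked. Each was higher in Ler, a direction marked in 3.38% of all events. Of the 30 other ubiquitin-conjugating enzymes, 11 had events and 1 of 22 events (4.55%, background 7.46%) was marked. This was an intron of UBC18, with levels of 1.35% (Col) and 12.3% (Ler) (q = 2.11e-08 in the authors' deposited table). UBC5 had the largest unmarked difference, with an intron at 96.2% in Col and 69.2% in Ler (q = 0.144), and a 5' site event of UBC13 is listed at 0 for Col and had 16.3% in Ler (q = 1), both in the authors' deposited table.

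No event was marked among the 13 of E2 variants and of the E2s for ubiquitin-like proteins (background 7.46%). Among these, UEV1D, an E2 variant, had a 5' site at 50.0% (Col) and 75% (Ler) (q = 0.409 in the authors' deposited table). RCE1, which conjugates the ubiquitin relative RUB, had a 5' site at 98.8% and 90.6%, 8.17 points apart and unmarked, with q = 9.09e-11 in the authors' deposited table. The E1 genes UBA1 and UBA2 had no event. Of 9 ubiquitin genes, UBQ1 alone had an event, a 5' site at 100.0% in Col and 99.6% in Ler (q = 0.000102 in the authors' deposited table).

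Among 20 ligases and ligase subunits, 10 had events and 2 of 17 events (11.8%, background 7.46%) were marked. UPL3, a HECT-type ligase named KAK in the annotation for its role in leaf hair branching, had an 82 bp intron listed at 61.9% in Col and 88.7% in Ler (q = 1e-13 in the authors' deposited table). SINAT5, a RING-type ligase, had a 3' site event at 41.4% and 78.1% (q = 0.0261 in the authors' deposited table) and an unmarked exon event at 67.3% and 86.8%. The UBC18, UBC13 and SINAT5 events have an interval of another length in Ler or lack a coordinate. DRIP2, a RING-type ligase, had an unmarked 5' site at 6.06% (Col) and 25% (Ler) (q = 0.216 in the authors' deposited table).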

How the data were processed

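Polyadenylated RNA of 2 Col and 2 Ler samples was sequenced. Per the submitters' processing notes, TopHat was used with the build TAIR10; no version is given. The inclusion level is a fraction, deposited by the authors as 1 value per ecotype, per the file headers, and was multiplied to percent here. A text cell gives the authors' q value and a sign that says which ecotype had the higher level, if any. Not stated in these sources are the estimator, the read minimum, the test, the rule for the sign, read strandedness and how samples were combined. Every marked event had q under 0.05 and differed by at least 10 points, so smaller differences carry no mark whatever their q. Another 135 events met both limits without a mark. Depth is unknown. No other annotated gene overlaps a member.

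Intervals are listed by flanking exon bases: so read, 4750 of 7399 retention intervals (64.2%) equalled an intron of the RefSeq annotation of TAIR10, and 0 did when the listed bases were read as intron ends. The coding exon structure was read from 1 RefSeq transcript per gene. Leader and coding sides were split at the start codon held by most RefSeq transcripts of a gene. For UBC9 the start in the transcript with a spliced leader was used. The far end of the coding span was taken over all transcripts.

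Odds of levels were multiplied along events that share a junction, with the main junction as 100. The code of this step was checked on simulated levels without error, which does not test whether the deposited levels follow the rule. No test was run: the planned description of the authors' marks applied, since the table holds pooled values. The members, the pathway lists and the rule for named events were chosen with earlier results of these data known. That rule takes every marked event and those sharing an end with it, each gene's largest difference, events with both forms annotated and, per pathway list, marked events and up to 2 unmarked ones with the largest difference; the remaining member events were added for completeness. Python 3.11.15, pandas 2.3.3 and NumPy 2.4.6 were used. Alternatives were other call rules, sets without levels of 0 or without intervals of another length in Ler, annotated forms alone, 1 event per gene, and each gene left out.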

Additional observations from a re-analysis of the deposited data

How the results depend on the processing

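The columns analysed hold pooled levels, so no result can be set against replicate error. With q under 0.05 alone, 14.3% of all events are called, against 7.46% by the mark. By that rule the UBC8 group had 7 of 34 events called in place of 3, and the other ubiquitin-pathway genes 6 of 53 in place of 3. Without intervals that lack a coordinate or have another length in Ler, the pathway count was 1. Under the other call rules the group's count ran from 2 (background 4.2%) to 4 (background 8.41%). The median absolute difference of the group ran from 0.77 points without UBC11 to 3.46 with 1 event per gene. The median retention level with annotated forms alone was 22.4% in Col and 30.4% in Ler, against 54.1% and 50.9%. No paired analysis was possible because the table holds 1 pooled value per ecotype, and for the same reason no replicate could be left out.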

Other observations

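The pairwise levels of 3 sites did not always close. For UBC30 in Col the main acceptor's level against the site 7 bp downstream was 79.6% when chained through the site 4 bp downstream, against 88.7% listed, while in Ler the values were 87.7% and 88.6%. For the 140 bp donor of UBC11 the chained and listed levels were 2.83% and 4.19% in Col and 5.47% and 5.65% in Ler. Both mismatches in Col run through the minor site whose level was lower there.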
